A study of Mus musculus with 2 samples.

Results

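The 9 genes described here are Apoe and 8 other genes of lipid handling: Lrp1, Trem2, Abca1, Abcg1, Lpl, Fabp4, Fabp5 and Npc2. They were chosen by symbol from the 32285 genes of the deposited matrices, and each symbol matched 1 row. Both groups were male wild-type mice, C57BL/6 in the labels and C57BL/6J in the study's methods, 10 weeks old in the sample description and 10 to 12 weeks old in the age field. Both were anaesthetised with isoflurane. The TBI group received a mild closed-skull impact over the right inferior temporal lobe, and the Sham group had the impactor fired without contact. At 1 week after the procedure the dorsal meninges of 5 mice per group were pooled, live singlet cells were sorted, and 1 droplet single-cell RNA library was made per group. The dorsal tissue did not include the site of impact. With 1 pooled library per group there is no replicate spread, so no difference between Sham and TBI was tested and no p-value is given. The intervals are 95% exact Poisson or binomial intervals and cover counting error only.

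Apoe encodes the secreted apolipoprotein E, which carries cholesterol and other lipids between cells. Cells take up such particles through lipoprotein receptors, of which Lrp1 is a large scavenging member, while Trem2 is a myeloid surface receptor that binds lipids and apolipoproteins and signals through the adaptor Tyrobp. The transporters Abca1 and Abcg1 move cholesterol out of cells onto apolipoproteins and lipoprotein particles. Lpl, lipoprotein lipase, releases fatty acids from circulating triglycerides at the vessel wall. Inside cells Fabp4 and Fabp5 bind fatty acids, and Npc2 hands cholesterol from the lysosomal lumen to its membrane partner Npc1. Macrophages and capillary endothelium are known sites of much of this traffic.

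The genes lie on 7 chromosomes of the mm10 (GRCm38) build by the GENCODE vM21 annotation, and all are protein coding. Apoe (ENSMUSG00000002985) is at chr7:19696109-19699188 on the minus strand, and Trem2 (ENSMUSG00000023992) at chr17:48346401-48354147 on the plus strand. The binding protein genes are both on chromosome 3, with Fabp5 (ENSMUSG00000027533) at chr3:10012548-10016607 and Fabp4 (ENSMUSG00000062515) at chr3:10204088-10208576. Lrp1 (ENSMUSG00000040249) at chr10:127538161-127621148 overlaps Gm16217 on the opposite strand, which is also counted in the matrices. Abca1 (ENSMUSG00000015243) is at chr4:53030787-53159895, Abcg1 (ENSMUSG00000024030) at chr17:31057675-31117988, Lpl (ENSMUSG00000015568) at chr8:68880491-68907448 and Npc2 (ENSMUSG00000021242) at chr12:84754562-84773152. The annotation also holds Fabp5l2, a copy of Fabp5, so reads shared with it make the Fabp5 values less certain.

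After filtering, 2043 Sham cells with 7866611 unique molecular identifiers (UMIs, counted RNA molecules) and 3773 TBI cells with 13940740 UMIs were kept. The median depth was 2764 UMIs per Sham cell and 2663 per TBI cell. Clustering without the 9 genes gave 27 clusters, of which 4 had no name and the others fell under 18 class names by their marker genes. The libraries shared 14 cell barcodes among the filtered cells. Levels are given as CPM, the UMIs of a gene per 1000000 UMIs of all cells of a class in 1 library, and ratios are log2 of TBI over Sham CPM with 0.5 UMI added to each sum. A gene is called past the fold at 1.5-fold either way when it had at least 20 UMIs over both libraries and the class at least 20 cells in each.

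Macrophage-like cells held most of the Apoe, Trem2 and Lpl molecules in both libraries. They held 91.2% of Apoe UMIs in Sham and 85.3% in TBI, 96.5% and 94.0% of Trem2 UMIs, and 71.5% and 69.0% of Lpl UMIs, although they gave 20.2% and 25.1% of all UMIs. Endothelial-like cells held 65.7% of Fabp4 UMIs in Sham and 79.5% in TBI. An unnamed cluster led by Cldn5, Slc38a5 and Sema3g, with UMIs of 22 of 22 endothelial markers, held a further 27.8% and 9.32%. The rise in the endothelial-like share is thus not a rise over all cells with endothelial markers. Lrp1 was spread over macrophage-like cells (29.2% and 15.97% of its UMIs), fibroblast-like cells (28.2% and 45.3%) and an unnamed cluster led by Snhg11, Gm17167 and Foxp2 (12.9% and 27.3%). Fabp5 was mostly in migratory dendritic-like cells, with 65.1% and 56.3% of its UMIs in 19 and 24 cells. Abca1, Abcg1, Lrp1 and Npc2 had no class with over 50% of their UMIs in either library.

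**Figure D1:**
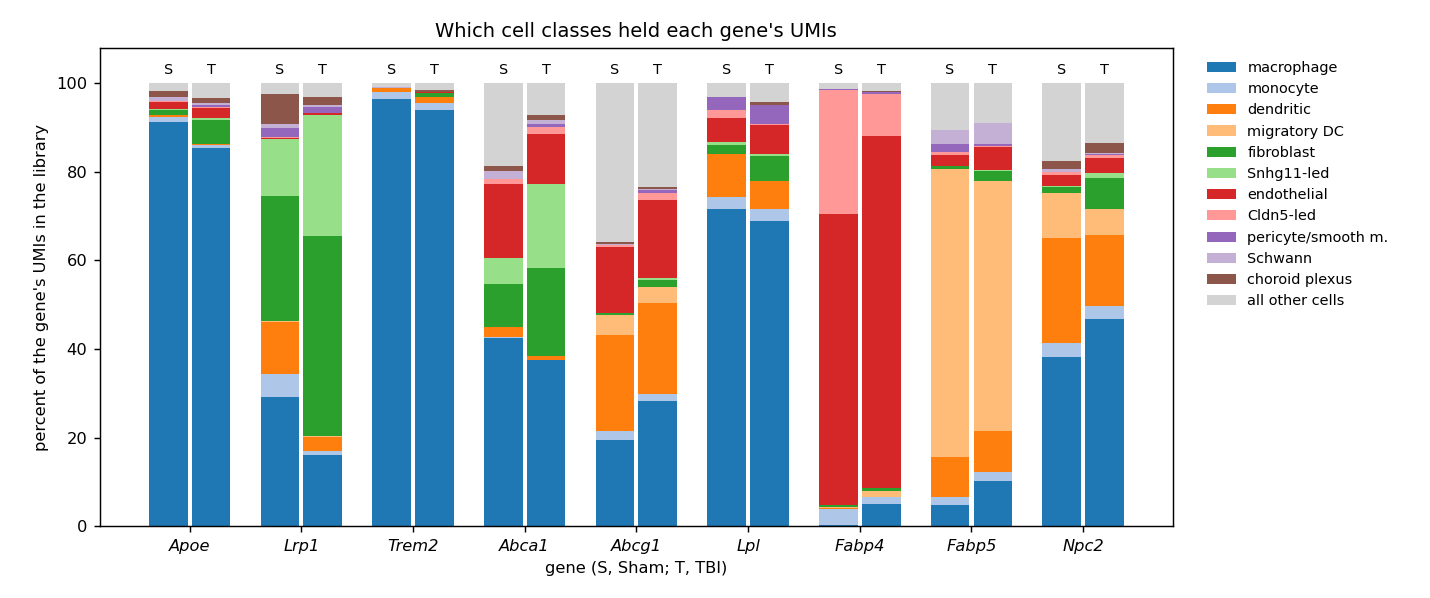
Stacked bars give the percent of each gene's UMIs held by each cell class, with Sham on the left (S) and TBI on the right (T) of each pair and all remaining cells in gray. Macrophage-like cells fill 91.2% and 85.3% of the Apoe bars, and endothelial-like cells fill 65.7% and 79.5% of the Fabp4 bars. The unnamed Cldn5-led cluster fills a further 27.8% and 9.32% of the Fabp4 bars.

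Over all filtered cells, 3 of the 9 genes were past the fold and higher in TBI. Lrp1 was 114 CPM in Sham and 269 CPM in TBI (log2 ratio 1.25, 1.14 to 1.35), Fabp4 was 47.0 and 106 CPM (1.17, 1.01 to 1.34), and Abca1 was 58.7 and 99.6 CPM (0.76, 0.61 to 0.92). Of all 14782 genes counted in the same way, 17.9% were past the fold and higher in TBI and 4.84% lower. A whole-library level mixes the makeup of the library with the level inside each class. With the TBI level of each class weighted by the Sham share of UMIs, the Lrp1 ratio was 0.10 and the Abca1 ratio 0.12, while the Fabp4 ratio was 0.98. Apoe went from 4043 CPM to 5345 CPM (0.40, 0.38 to 0.42) and its ratio at the Sham makeup was 0.04. At an equal makeup of classes the Lrp1, Abca1 and Apoe ratios were thus near 0, and the Fabp4 ratio was not. The Fabp5 ratio was 0.01 over all cells and 0.50 at the Sham makeup. Most Fabp5 UMIs came from few cells, described below. Fibroblast-like cells were 3.18% of Sham and 11.8% of TBI cells, and the share recovered by dissociation and sorting cannot be told apart from the share in the tissue.

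Apoe was highest in macrophage-like cells, at 18234 CPM in Sham (18025 to 18445) and 18126 CPM in TBI (17985 to 18267). The log2 ratio was -0.01 (-0.03 to 0.01), so the interval of the difference was far inside 1.5-fold. After each cell was thinned to 1000 UMIs, 94.6% of Sham and 93.1% of TBI macrophage-like cells held an Apoe UMI, beside 94.7% and 96.3% before thinning. The median depth of macrophage-like cells was 2988 UMIs in Sham and 4513 in TBI, so their shares before thinning also depend on depth. In their Ccl8-led cluster, described below, it was 1018 and 1141 UMIs, and thinning left out cells under 1000 UMIs. The 3 cells with most Apoe UMIs were 0.88% of the Sham and 0.42% of the TBI cells of the class. They held 6.56% of its Apoe UMIs in Sham and 2.96% in TBI, so the level did not rest on a few cells. Among named classes with at least 20 cells in each library, the next levels were in Schwann-like cells (3862 and 3455 CPM), the glia of peripheral nerves, and in monocyte-like cells (2692 and 2745 CPM). Choroid plexus-like cells had 1377 and 1183 CPM. Pericyte or smooth muscle-like cells had 734 CPM in Sham (442 to 1146, 19 UMIs) and 1959 CPM in TBI (1710 to 2234, 223 UMIs). That difference was past the fold, where 25.9% of 1274 genes were past it and higher and 17.1% lower. Of 12 named classes counted for Apoe, 7 were past the fold and higher and 0 lower. Among the 7 were B cell-like, immature B cell-like, T cell-like and ILC2 or Th2-like cells, lymphocyte classes read as background. The others were pericyte or smooth muscle-like, fibroblast-like and endothelial-like cells. The fibroblast-like and endothelial-like calls were lost without predicted doublets. Over these 7 classes 8.7% to 25.9% of all genes were past the fold and higher and 7.5% to 17.1% lower. Of the unnamed clusters, the one led by Cspg5, Edn3 and Cntnap2 had 5784 CPM in 10 Sham cells and 9876 CPM in 46 TBI cells, and the one led by F630028O10Rik, Gm46224 and Adap2 had 3009 CPM in 72 Sham cells and 5029 CPM in 140 TBI cells. In the latter, 118 of the 268 Sham UMIs were in 1 cell. The Sham intervals of choroid plexus-like and fibroblast-like cells (1298 CPM) overlapped, so the order of these neighbours in Sham is within counting error.

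Within the macrophage-like class the 3 clusters differed in Apoe and in its direction between libraries. In the cluster led by C5ar1, Fcrls and Ccl12 (72 Sham and 249 TBI cells), Apoe was 28946 CPM in Sham and 21813 CPM in TBI, a log2 ratio of -0.41 (-0.44 to -0.38). In the cluster led by Slamf9, Klra2 and Fcgr4 (103 and 244 cells), Apoe was 11442 CPM in Sham and 14232 CPM in TBI, a ratio of 0.31 (0.28 to 0.35). In the cluster led by Ccl8, Cd209f and Cd209g (165 and 217 cells) it was 20352 and 20520 CPM, a ratio of 0.01 (-0.04 to 0.07). None of the 3 ratios was past 1.5-fold. Of all 9 genes, 1 of 8 counted was higher and none lower past the fold in the C5ar1-led cluster (8.41% and 11% of all genes), 1 of 7 higher and 1 lower in the Ccl8-led cluster (11.4% and 11.6%), and 1 of 9 higher and none lower in the Slamf9-led cluster (8.73% and 8.63%). The signs of the first pair stayed under the 7 other settings tried on these clusters, with -0.48 to -0.33 and 0.22 to 0.38. All 7 kept the same cluster labels, and no other clustering was tried for these values. They cannot show whether the signs hold when the macrophage-like cells are split in another way. The difference between the clusters was not tested, since each library gives 1 value per cluster. Per cell, the median Apoe count per 10000 UMIs was 271 in Sham and 208 in TBI in the first cluster, and 99.3 and 127 in the Slamf9-led cluster. The quartiles of the Sham and TBI cells overlapped in each cluster.

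**Figure D2:**
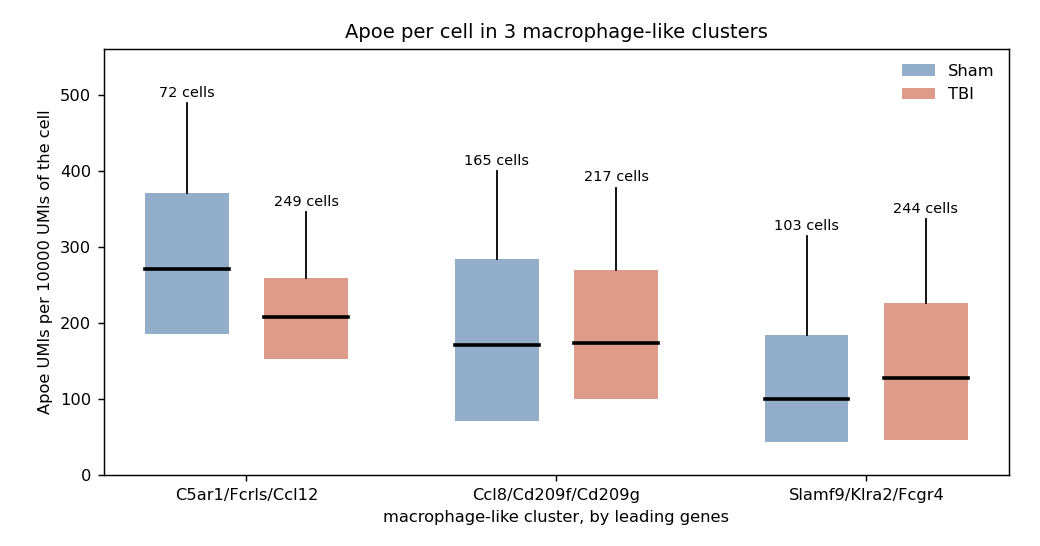
Bars span the first to the third quartile over cells of the Apoe UMIs per 10000 UMIs of the cell, black lines mark medians and thin lines reach the 90th percentile, for Sham (blue) and TBI (red) in each macrophage-like cluster. The median was 271 in Sham and 208 in TBI in the C5ar1-led cluster, and 99.3 and 127 in the Slamf9-led cluster.

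In fibroblast-like cells, which make the collagen matrix of the meninges, Apoe was 1298 CPM in 65 Sham cells and 2391 CPM in 447 TBI cells (0.88, 0.72 to 1.05). It was the 1 gene past the fold there among the 6 of the 9 with enough UMIs, where 12.7% of 9530 genes were past the fold and higher and 15.3% were lower. Thinned to 1000 UMIs, 65.3% of Sham and 66.0% of TBI cells held an Apoe UMI, beside 78.5% and 82.8% before thinning. The 3 TBI cells with most Apoe, with 232, 133 and 97 UMIs, were all predicted doublets (droplets that took up a pair of cells) and held 334, 495 and 167 UMIs of macrophage markers. Macrophage markers moved with the difference: 7 of 24 had a UMI in Sham fibroblast-like cells and 24 of 24 in TBI, with summed levels of 76.6 and 1384 CPM, and the defining markers Csf1r, Adgre1, Mrc1, Pf4 and Cd68 were at 0 in Sham. The counts of markers with a UMI and the zeros, here and in the classes below, also depend on depth. Fibroblast-like cells had 261241 UMIs in Sham and 1662758 in TBI. Choroid plexus markers summed to 2580 and 3915 CPM, and Ttr, a secreted carrier made by the choroid plexus, was 122 and 1048 CPM. Without predicted doublets Apoe was 1410 and 1982 CPM (0.49, 0.33 to 0.66), and Ttr 135 and 196 CPM. The call was thus lost without doublets, while the interval stayed above 0. It was also lost as a mean over cells (0.43) and with cells thinned to 1000 UMIs (0.34, 0.03 to 0.67). At a finer clustering 3 clusters carried the fibroblast name. These were looked at singly after seeing the data, and the Ptgds-led one was 39 of 80 Sham but 127 of 468 TBI cells. Apoe was 2058 and 3047 CPM in that cluster, 1580 and 2835 CPM in the Comp-led cluster (22 and 167 cells) and 652 and 1613 CPM in the Ccn5-led cluster (19 and 174 cells), doublets included. The unnamed Snhg11-led cluster, which had UMIs of 22 of 22 fibroblast markers in each library, had 870 CPM of Apoe in Sham and 744 CPM in TBI (-0.23, -0.55 to 0.11). The ratio was 0.21 (-0.19 to 0.67) without the 3 highest cells of each library. The cluster had 57 Sham and 324 TBI cells, so leaving out 3 of each takes a larger share of Sham. With that cluster added to the class, another alternative chosen after seeing the data, the ratio was 0.72 (0.57 to 0.86).

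In endothelial-like cells Apoe was 942 CPM in Sham and 1483 CPM in TBI (0.65, 0.51 to 0.80). Macrophage markers moved with it here too: 12 of 24 had a UMI in Sham and 24 of 24 in TBI, with summed levels of 283 and 787 CPM, and Csf1r, Adgre1, C3ar1 and Cd68 were at 0 in Sham. Without predicted doublets the values were 942 and 1327 CPM (0.49, 0.34 to 0.65), again under 1.5-fold. The Vwf-led cluster carried more Apoe (1726 and 2599 CPM) than the Gpihbp1-led cluster (695 and 853 CPM). It was 58 of 253 Sham but 150 of 457 TBI cells of the class. The class ratio thus mixes the makeup of the class with the level inside each cluster. With all cells the Apoe ratio was 0.59 in the Vwf-led cluster, just past the fold, and 0.29 in the Gpihbp1-led cluster. In the Vwf-led cluster 20.9% of 4641 genes were past the fold and higher and 13.3% lower. Over 8 alternatives the Apoe ratio was 0.26 to 0.64 in the Vwf-led and 0.13 to 0.35 in the Gpihbp1-led cluster.

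Apoe UMIs were also found in cells that should lack the gene. B cell-like cells had 101.1 CPM in Sham and 235 CPM in TBI, and 5.39% and 13.1% of them held an Apoe UMI after thinning (11.3% and 22.9% before). In TBI 78 of their 199 Apoe UMIs were in 1 predicted doublet that held 189 UMIs of macrophage markers. Without the highest cell of each library, also chosen after seeing the data, the levels were 76.2 and 145 CPM, and without predicted doublets 103 and 134 CPM. Of the 9 genes 6 were counted in B cell-like cells, with 3 past the fold and higher and 2 lower. Among 7678 genes there 8.7% were higher and 7.5% lower. The background given by this class thus itself differed between the libraries. The median depth of B cell-like cells was 3082.5 UMIs in Sham and 2662 in TBI, against 3526 and 3015 in fibroblast-like cells and 1855 and 2077 in endothelial-like cells. In barcodes whose UMIs were over 50% hemoglobin, which are mostly red cells, Apoe was 119 CPM of the other UMIs in Sham (83.3 to 165) and 429 CPM in TBI (334 to 541). Lymphocyte values at this level are read as background. T cell-like cells (26.1 and 69.9 CPM) and immature B cell-like cells (17.9 and 246 CPM) were below the hemoglobin-rich barcodes of the same library. Without the highest cell of each library, immature B cell-like cells had 15.0 and 45.1 CPM. NK cell-like cells had 0 Apoe UMIs in Sham and 19 in TBI. In dendritic-like cells 122 of the 145 Sham Apoe UMIs were in 1 cell, and the ratio went from -0.41 with all cells to 1.36 without the 3 highest cells of each library.

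**Figure D3:**
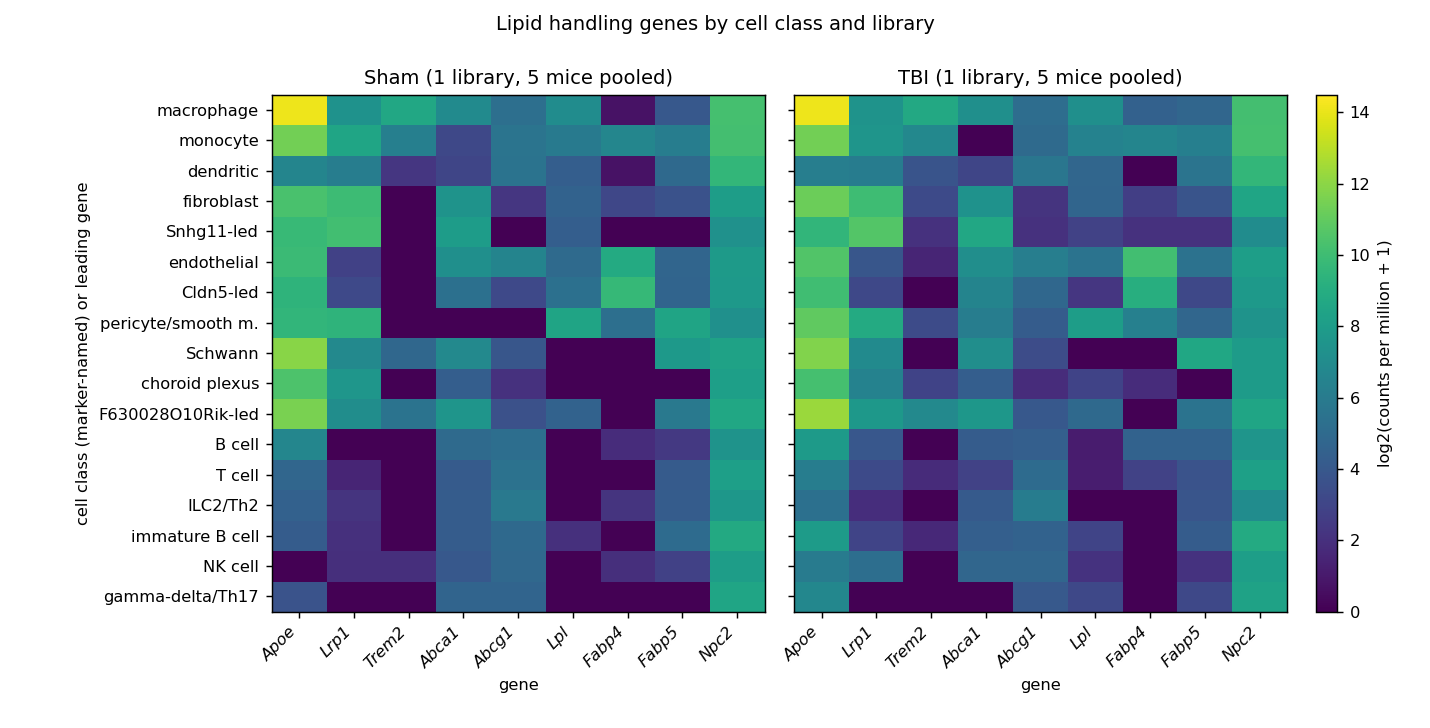
Color gives log2(CPM + 1) of each gene (columns) in each cell class or unnamed cluster with at least 20 cells in both libraries (rows), Sham on the left and TBI on the right. Apoe is brightest in macrophage-like cells in both panels, at 18234 and 18126 CPM, and Fabp4 in the endothelial rows.

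Among named classes, the receptor gene Lrp1 was highest in fibroblast-like cells, at 965 CPM in Sham (849 to 1091) and 1024 CPM in TBI (976 to 1073), a log2 ratio of 0.08 (-0.11 to 0.28). The Sham interval overlapped that of pericyte or smooth muscle-like cells (412 to 1098 CPM). After thinning, 57.1% of Sham and 62.8% of TBI fibroblast-like cells held an Lrp1 UMI (76.9% and 85.7% before), against 0 of 334 Sham B cell-like cells (upper bound 1.10%) and 3 of 274 TBI B cell-like cells. The unnamed Snhg11-led cluster, which joined the fibroblast-like class at a coarser clustering, had more, at 1100 CPM in 57 Sham cells (908 to 1320) and 1598 CPM in 324 TBI cells (1501 to 1699), a ratio of 0.53 (0.26 to 0.83). Its interval overlapped the fibroblast-like one in Sham and not in TBI. That difference was under 1.5-fold with all cells and 0.78 (0.47 to 1.13) without the 3 highest cells of each library. In macrophage-like cells Lrp1 was 164 and 171 CPM (0.06, -0.15 to 0.28). It was past the fold and lower in TBI in 3 of 7 named classes counted. These were choroid plexus-like cells, at 195 CPM in Sham and 86.5 CPM in TBI (-1.17, -1.69 to -0.65), monocyte-like cells, at 360 and 190 CPM (-0.92, -1.56 to -0.29), and pericyte or smooth muscle-like cells, at 695 and 466 CPM (-0.60, -1.37 to 0.28). The first 2 rest on 61 and 67 UMIs and on 47 and 42 UMIs, and without the 3 highest cells of each library their ratios were -1.15 and -1.23. The last rests on 18 and 53 UMIs, its interval reached 0, and without those cells it turned to 0.20. Pericyte or smooth muscle-like cells were 21 in Sham and 68 in TBI. There and in the Snhg11-led cluster, leaving out 3 cells takes a larger share of Sham. Among 5015 genes in choroid plexus-like cells 14.4% were past the fold and lower in TBI and 11.4% higher, among 2640 in monocyte-like cells 13.2% and 15%, and among 1274 in pericyte or smooth muscle-like cells 17.1% and 25.9%.

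Trem2 was found mainly in macrophage-like cells, at 419 CPM in Sham (387 to 452) and 424 CPM in TBI (403 to 447). The log2 ratio was 0.02 (-0.11 to 0.15), and 33.7% of Sham and 30.7% of TBI cells held a Trem2 UMI after thinning (55.0% and 63.5% before). Among named classes monocyte-like cells followed with 76.7 and 109 CPM, from 10 and 24 UMIs. Dendritic-like cells had 3.95 and 12.4 CPM, from 6 and 22 UMIs (log2 ratio 1.56). That was the 1 Trem2 ratio past the fold among 3 named classes counted. Of 8458 genes in dendritic-like cells 8.76% were past the fold and higher and 5.56% lower. No B cell-like cell held a Trem2 UMI, for which 3 counts would be 2.64 CPM in Sham and 3.55 CPM in TBI. All 3 macrophage-like clusters had Trem2, at 467 and 422 CPM in the C5ar1-led, 401 and 335 CPM in the Ccl8-led and 395 and 444 CPM in the Slamf9-led cluster. Its signalling partner Tyrobp was 3227 CPM in Sham and 3306 CPM in TBI macrophage-like cells (0.03, -0.01 to 0.08).

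The cholesterol transporter Abca1 was 123 CPM in Sham and 148 CPM in TBI macrophage-like cells (0.27, 0.03 to 0.51), 172 and 166 CPM in fibroblast-like cells (-0.07, -0.51 to 0.43) and 150 and 144 CPM in endothelial-like cells (-0.07, -0.47 to 0.35). These 3 classes had overlapping levels in each library. The C5ar1-led macrophage-like cluster had more Abca1 (250 and 245 CPM) than the Ccl8-led (107 and 115 CPM) or the Slamf9-led cluster (53.3 and 64.8 CPM), and this order was the same in both libraries. In the Snhg11-led cluster Abca1 was 258 CPM in Sham and 412 CPM in TBI (0.65, 0.10 to 1.303), from 27 and 264 UMIs. It was the 1 gene of 4 with enough UMIs past the fold there, where 20% of 6927 genes were past it and higher and 16% lower. After thinning, 10.9% and 12.2% of macrophage-like cells held an Abca1 UMI (31.2% and 37.0% before), against 2.69% and 1.09% of B cell-like cells.

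Abcg1 had a different distribution, with the highest levels in endothelial-like cells (91.7 CPM in Sham, 72.4 CPM in TBI) and migratory dendritic-like cells (82.7 and 88.7 CPM, from 14 and 16 UMIs). ILC2 or Th2-like cells, a class of type 2 lymphocytes, had 57.1 and 66.5 CPM. Dendritic-like cells had 44.8 and 50.6 CPM and macrophage-like cells 38.3 and 35.4 CPM. B cell-like cells had 36.0 CPM in Sham and 20.1 CPM in TBI, from 41 and 17 UMIs. Part of the Abcg1 level of the lower classes is thus at the level of this class. Its Sham interval (25.9 to 48.9) was above that of the hemoglobin-rich barcodes (0.08 to 18.4). The B cell-like ratio (-0.82) was the 1 Abcg1 ratio past the fold among 7 named classes counted. Of 7678 genes in B cell-like cells 7.5% were past the fold and lower and 8.7% higher. No ratio in the macrophage-like (-0.12, -0.57 to 0.35) or endothelial-like class (-0.35, -0.88 to 0.21) was past the fold. Across the 18 classes the levels of Abca1 and Abcg1 had a Pearson correlation of -0.34, as a description over classes that share 2 libraries.

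Lpl was 133 CPM in Sham (115 to 152) and 146 CPM in TBI (133 to 159) in macrophage-like cells, with a ratio of 0.13 (-0.10 to 0.37) on the log2 scale. The 10 cells with most Lpl UMIs held 48.3% of the Sham and 22.5% of the TBI UMIs of this class. They were 2.94% of its Sham and 1.41% of its TBI cells, and the 20 highest TBI cells (2.82%) held 36.0%. After thinning, 6.98% of Sham and 9.95% of TBI macrophage-like cells held an Lpl UMI, against 0 of 334 (upper bound 1.10%) and 1 of 274 B cell-like cells. Before thinning the macrophage-like shares were 20.6% and 26.6%. The Slamf9-led cluster had the most, at 162 and 188 CPM. Pericyte or smooth muscle-like cells had 348 and 272 CPM, but from 9 and 31 UMIs in 21 and 68 cells. In the Gpihbp1-led endothelial cluster Lpl was 38.5 CPM in Sham and 68.3 CPM in TBI, from 15 and 47 UMIs (0.80, -0.04 to 1.77), past the fold but with an interval that reached 0. Gpihbp1, which anchors the lipase to the capillary wall, was 843 CPM in both libraries in endothelial-like cells (0.00, -0.17 to 0.17).

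**Figure D4:**
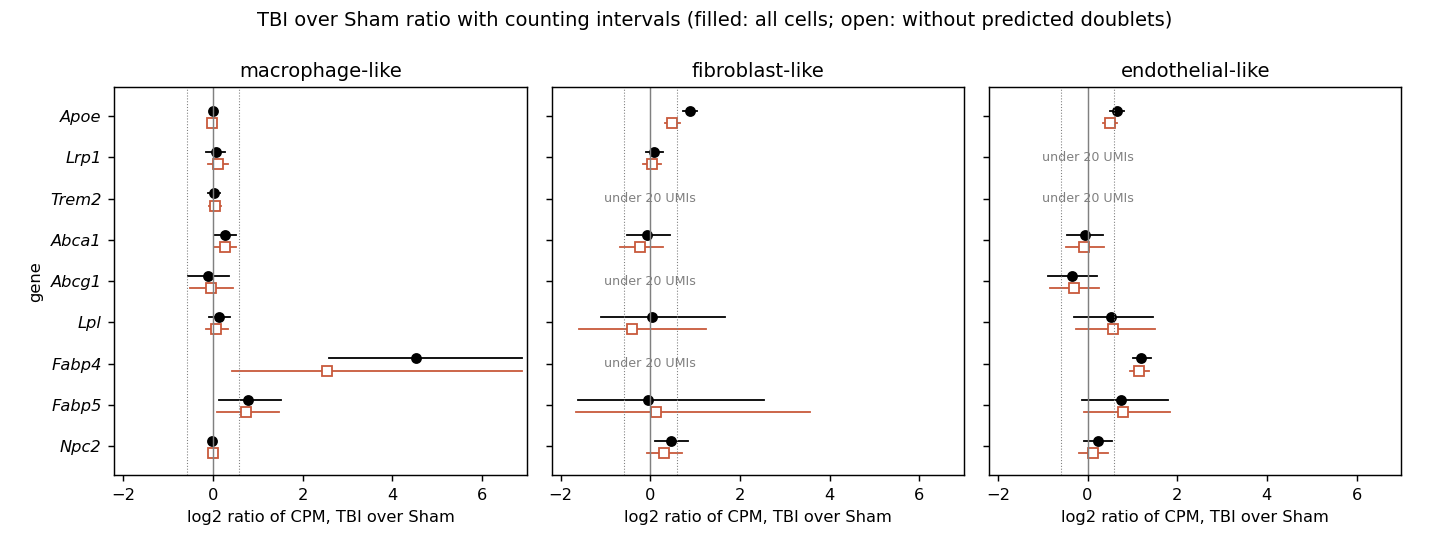
Points give the log2 ratio of TBI over Sham CPM for each gene in 3 classes and lines its 95% counting interval, filled black with all cells and open red without predicted doublets, with dotted lines at 1.5-fold; intervals past the axis are cut at 6.9. Without doublets Apoe moves under 1.5-fold in fibroblast-like and endothelial-like cells, and Fabp4 in endothelial-like cells stays near 1.16.

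Fabp4 differed between the libraries within endothelial-like cells, the lining of the vessels. It was 474 CPM in Sham (416 to 538, 243 UMIs in 253 cells) and 1093 CPM in TBI (1031 to 1157, 1177 UMIs in 457 cells), which is 2.30-fold higher in TBI (log2 ratio 1.20, 1.00 to 1.41). Of the 9 genes 7 had enough UMIs in this class. Of these, 3 were past the fold and higher (Apoe, Fabp4 and Fabp5) and none lower, against 10.6% of 8504 genes higher and 7.9% lower. Fabp5 was 25.4 and 43.6 CPM, from 13 and 47 UMIs (0.74, -0.13 to 1.79), with an interval that reached 0. Apoe was under 1.5-fold without predicted doublets. After thinning, 15.7% of Sham cells (10.9 to 21.5) and 23.4% of TBI cells (19.2 to 27.9) held a Fabp4 UMI, beside 20.6% and 29.3% before. The background share in thinned B cell-like cells was 0.299% and 1.09%. Cells with 5 or more Fabp4 UMIs were 6.72% of the Sham and 12.3% of the TBI cells of the class. The endothelial markers of the class summed to 30899.5 and 28739 CPM, with 22 of 22 present in each library. Markers of other types moved with the difference: macrophage markers summed to 283 CPM in Sham and 787 CPM in TBI, fibroblast markers to 1256 and 3527 CPM, and pericyte or smooth muscle markers to 183 CPM (10 of 18 with a UMI, Notch3, Myh11 and Pdgfrb at 0) and 346 CPM (18 of 18). Their part in the Fabp4 ratio was not tested. Of 8 adipocyte markers, listed because Fabp4 is also an adipocyte gene, 7 were at 0 in Sham, where the other had 1 UMI, and all 8 were at 0 in TBI.

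A small part of the endothelial-like cells held most Fabp4 in both libraries. In Sham 9 of 253 cells held 50% of the Fabp4 UMIs, and in TBI 15 of 457. The 3 highest cells had 24, 17 and 17 UMIs in Sham and 121, 67 and 61 UMIs in TBI, which is 23.9% and 21.2% of the class total. The highest pair in TBI were not predicted doublets and held 104 and 142 UMIs of endothelial markers. The third was a predicted doublet with 41 UMIs of macrophage markers. Without these 3 cells of each library the ratio was 1.25 (1.03 to 1.49), and without predicted doublets it was 1.16 (0.96 to 1.37).

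**Figure D5:**
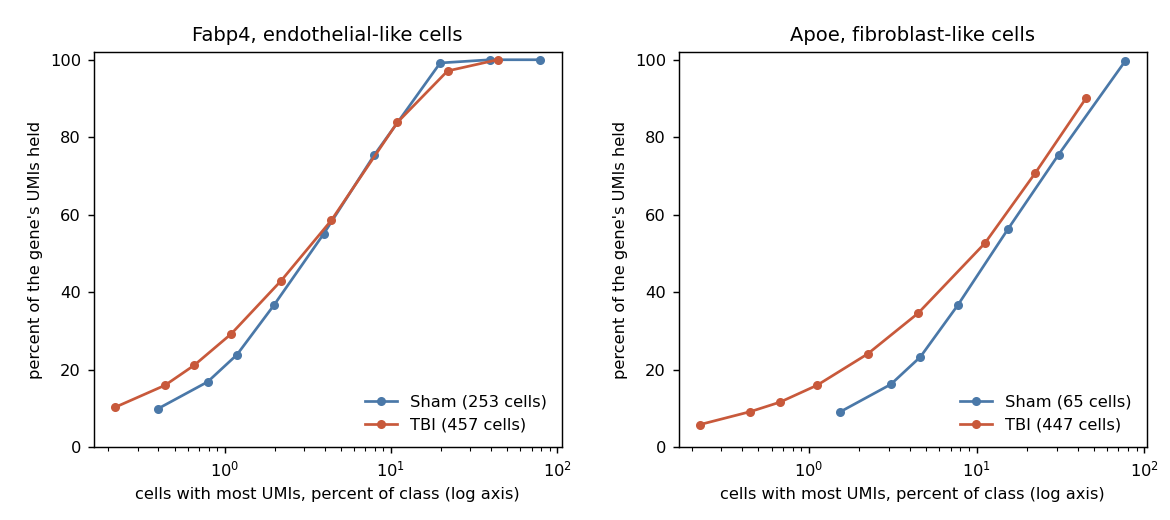
Each line gives the percent of a gene's UMIs (vertical axis) held by the cells with most UMIs, as a percent of the cells of the class on a log axis, for Fabp4 in endothelial-like cells (left) and Apoe in fibroblast-like cells (right). For Fabp4, the 10 highest cells held 55.1% of the Sham and 43.0% of the TBI UMIs. They were 3.95% of the Sham and 2.19% of the TBI cells. The 20 highest TBI cells, 4.38% of the class, held 58.5%.

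Past the fold were 3 of 7 counted genes higher and none lower in the Gpihbp1-led cluster (9.43% and 9.07% of all genes), and 3 of 5 higher and 1 lower in the Vwf-led cluster (20.9% and 13.3%). The Fabp4 ratio differed in size between these clusters. In the Gpihbp1-led cluster, whose leading gene marks capillaries, Fabp4 was 482 CPM in Sham and 1295 CPM in TBI (1.42, 1.20 to 1.66). In the Vwf-led cluster, whose leading gene encodes von Willebrand factor, it was 448 and 736 CPM (0.71, 0.30 to 1.16). In the unnamed cluster led by Cldn5, Slc38a5 and Sema3g, which also held 22 of 22 endothelial markers, Fabp4 was 833 CPM in Sham and 552 CPM in TBI (-0.59, -0.97 to -0.21), where 13.6% of 3633 genes were past the fold and lower and 13.8% higher. The last value rested on few cells: without the 3 highest cells of each library it was 0.04 (-0.51 to 0.63). The difference between clusters was not tested.

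Cd36, a fatty acid and lipoprotein receptor of capillaries from the list of receptors, was also higher in TBI endothelial-like cells. It was 42.9 CPM in Sham (22 UMIs in 13 cells) and 114 CPM in TBI (123 UMIs in 49 cells), a log2 ratio of 1.39 (0.75 to 2.14). In the Gpihbp1-led cluster it was 51.3 and 153 CPM (1.54). Cells with UMIs of both Fabp4 and Cd36 were 10 of 253 in Sham and 34 of 457 in TBI. Scarb1, a receptor for high-density lipoprotein, was 1065 and 873 CPM (-0.29, -0.44 to -0.13), under 1.5-fold.

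Fabp4 in macrophage-like cells came from few cells. Macrophage-like cells had 1 UMI in Sham and 76 in TBI (4.53, 2.59 to 10.4), of which 47 and 11 were in a pair of predicted doublets that held 42 and 12 UMIs of endothelial markers. Endothelial markers in this class went from 12 of 22 with a UMI to 21 of 22, and from 48.4 to 114 CPM, with Cldn5, Plvap, Tie1 and Esam at 0 in Sham. Without predicted doublets the ratio was 2.53 (0.42 to 8.46). Together with Fabp5 (15.1 and 26.2 CPM, 0.78, 0.14 to 1.51) it made 2 of 9 genes past the fold and higher in macrophage-like cells and none lower, against 7.08% of 9731 genes higher and 5.22% lower. In monocyte-like cells Fabp4 was 99.7 and 95.1 CPM, from 13 and 21 UMIs in 31 and 44 cells (-0.09, -1.13 to 1.05). B cell-like cells had 2.64 and 22.5 CPM, from 3 and 19 UMIs in 372 and 297 cells. That difference was past the fold, where 8.7% of 7678 genes were past it and higher and 7.5% lower. Migratory dendritic-like cells had 116 CPM in TBI, from 21 UMIs in 24 cells.

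Fabp5 was highest in migratory dendritic-like cells, the Ccr7-bearing cells that carry antigen to lymph nodes, at 1933 CPM in Sham (1729 to 2154) and 2804 CPM in TBI (2565 to 3059). A total of 17 of 19 Sham and 21 of 24 TBI cells held a Fabp5 UMI. With under 20 cells in Sham this class was not counted, and 250 of the 506 TBI UMIs were in 1 cell. Without the 3 highest cells of each library the ratio turned from 0.54 to -0.27 (-0.58 to 0.03). Schwann-like cells had 221 and 401 CPM (0.84, 0.01 to 1.79), from 16 and 43 UMIs. In dendritic-like cells 55 of the 84 TBI UMIs were in 1 cell, and the ratio of 0.66 turned to -0.41 without the 3 highest cells.

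Npc2 was spread over many classes and did not differ past the fold in the classes that held most of it. It was 620 and 623 CPM over all cells, 1172 CPM in Sham and 1157 CPM in TBI macrophage-like cells (-0.02, -0.10 to 0.06), 1150 and 1187 CPM in monocyte-like cells (0.04, -0.25 to 0.34), 762 and 787 CPM in dendritic-like cells (0.05, -0.07 to 0.16) and 2908 and 2776 CPM in migratory dendritic-like cells. Macrophage-like and monocyte-like levels overlapped in both libraries. After thinning, 63.2% of Sham and 67.9% of TBI macrophage-like cells held an Npc2 UMI (82.4% and 89.9% before), against 15.0% and 16.4% of B cell-like cells. In fibroblast-like cells Npc2 was 268 and 370 CPM (0.46, 0.11 to 0.84), and 0.30 (-0.07 to 0.70) without predicted doublets. Its partner Npc1 was 40.8 and 34.2 CPM in macrophage-like cells (-0.26, -0.70 to 0.20).

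Lists of 105 other lipid genes, grouped by role, were described in the same classes. In macrophage-like cells 84 were counted, and 8.33% were past the fold and higher and 5.95% lower, close to the 7.08% and 5.22% of all genes. By list, higher and lower genes were 2 and 2 of 6 apolipoprotein genes, 0 and 0 of 8 receptors, 1 and 0 of 11 efflux genes, 2 and 1 of 13 cholesterol synthesis genes, 1 and 0 of 12 lipase and lipid droplet genes, 1 and 1 of 13 fatty acid genes, 0 and 0 of 12 lysosomal genes and 0 and 1 of 9 genes of Trem2 signalling. Among list genes with at least 50 UMIs, Apod, an apolipoprotein, was highest at 2.51 and 18.3 CPM (2.70, 1.43 to 4.78). Next came Ch25h, which makes 25-hydroxycholesterol, at 8.17 and 29.1 CPM (1.79, 0.99 to 2.79). Dgat1, a triglyceride-forming enzyme, followed at 6.28 and 12.8 CPM (0.98, 0.02 to 2.18). By the same limit Apoc2, the activator of lipoprotein lipase, was lowest at 32.0 and 17.4 CPM (-0.88, -1.44 to -0.32). Next came Plcg2, which acts downstream of Trem2, at 76.0 and 49.3 CPM (-0.63, -0.97 to -0.28). Acsl4, which activates polyunsaturated fatty acids, followed at 27.6 and 18.3 CPM (-0.60, -1.18 to -0.01). Of the genes known to act directly with the 9, the receptor chaperone Lrpap1 was 82.9 and 99.0 CPM (0.25, -0.04 to 0.56) and the liver X receptor Nr1h3, which drives Abca1, 6.91 and 8.84 CPM (0.31, -0.68 to 1.50). Apoc1, a neighbour of Apoe, had 12 and 13 UMIs (-1.03, -2.27 to 0.24), and the receptor Vldlr had 1 and 10 UMIs. Fibroblast markers summed to 327 and 593 CPM in macrophage-like cells, with Pdgfra at 0 in Sham. Their part in these ratios was not tested.

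In endothelial-like cells 64 list genes were counted, of which 18.8% were higher past the fold and 4.69% lower, beside 10.6% and 7.9% of all genes, with a median log2 ratio of 0.16 against 0.00 over all genes of the class. By list, higher and lower genes were 1 and 0 of 3 apolipoprotein genes, 1 and 0 of 5 receptors, 1 and 0 of 8 efflux genes, 3 and 2 of 9 cholesterol synthesis genes, 1 and 0 of 13 lipase genes, 3 and 0 of 12 fatty acid genes, 1 and 1 of 12 lysosomal genes and 1 and 0 of 2 genes of Trem2 signalling. Besides Cd36, those highest with at least 50 UMIs were Tyrobp and Clu. Tyrobp, the Trem2 adaptor, was 9.75 and 41.8 CPM (1.98), and Clu, a secreted apolipoprotein, 228 and 396 CPM (0.79, 0.49 to 1.10). Without predicted doublets Tyrobp was 9.79 and 11.03 CPM (0.10), and Clu kept 0.79 and Cd36 1.43. The lowest were Lipa, the lysosomal acid lipase, at -0.39, the mitochondrial enzyme Acadvl at -0.36, and Scarb1. Lrpap1 was 70.2 and 99.4 CPM (0.49, -0.06 to 1.09). Fibroblast markers in this class went from 16 of 22 with a UMI and 1256 CPM in Sham to 20 of 22 and 3527 CPM in TBI, with Lum and Fbln1 at 0 in Sham and Pdgfra at 0 in both, and their part in these ratios was not tested.

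In fibroblast-like cells 73 list genes were counted, with 17.8% higher past the fold and 9.59% lower, beside 12.7% and 15.3% of all genes. By list, higher and lower genes were 2 and 1 of 4 apolipoprotein genes, 1 and 1 of 7 receptors, 1 and 0 of 10 efflux genes, 3 and 1 of 13 cholesterol synthesis genes, 2 and 0 of 12 lipase genes, 1 and 2 of 11 fatty acid genes, 1 and 1 of 12 lysosomal genes and 2 and 1 of 4 genes of Trem2 signalling. Clu was 337 CPM in Sham and 994 CPM in TBI (1.55, 1.25 to 1.89) and 1.53 without predicted doublets. In the unnamed Snhg11-led cluster, which also held fibroblast markers, Clu was 124 and 145 CPM (0.18, -0.62 to 1.19), from 13 and 93 UMIs. Insig1, a brake on cholesterol synthesis, was 15.3 and 43.3 CPM (1.34, 0.08 to 3.41). Tyrobp, a myeloid gene, was 3.83 and 115 CPM (4.33, 2.41 to 10.2) and 4.23 and 27.1 CPM without predicted doublets. Lrpap1 was 341 and 442 CPM (0.37, 0.06 to 0.71) and Vldlr 107 and 92.02 CPM (-0.24, -0.81 to 0.42). With at least 50 UMIs, the lowest were Scarb1 (-1.01), the lectin gene Lgals3 (-0.84) and the fatty acid transporter Slc27a4 (-0.81).

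Over the 18 classes, with both libraries summed, genes among the 3 whose log2(CPM + 1) followed a given gene most closely were named by Pearson correlation, as a description. Trem2 was followed by the macrophage genes Csf1r (0.94), F13a1 (0.92) and C3ar1 (0.92). Apoe was followed by Hebp1 (0.89) and Sash1 (0.86), Lrp1 by Fzd7 (0.89) and Zfp768 (0.86), and Lpl by Cd302 (0.87) and Parvb (0.83). Fabp4 was followed by Scarf1 (0.88), Flt1 (0.83) and Znfx1 (0.81), Abca1 by Creb3l2 (0.88), Mesd (0.87) and Mpv17 (0.87), and Npc2 by Rgs10 (0.84), Pomp (0.82) and Ctss (0.82). For Fabp5 (Map4k4, 0.79) and Abcg1 (Pfkfb3, 0.78) the closest gene was under 0.80. Among the 9 genes Apoe and Lrp1 were the pair most alike (0.75).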

How the data were processed

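Gene counts (UMIs) of 2 droplet 3' libraries, 1 per group, were deposited by the authors as raw matrices. The submitters' processing notes name Cell Ranger 2.1.1, Seurat 3.9.9, DESeq2 1.30.0 and build mm10; the matrix header gives 3.1.0. The files held 2699 Sham and 4349 TBI barcodes, numbers that differ from the cell numbers the study states. Barcodes with 150 to 5000 genes, at most 20% mitochondrial and 5% hemoglobin UMIs were kept. Cells were clustered on 2000 variable genes, without the 9 genes and the lipid lists, with 20 components, 20 neighbours and Leiden resolution 0.8 (scikit-learn 1.9.0, leidenalg 0.10.2, Python 3.11.15). A cluster was named from at least 3 markers among its 50 genes of highest fold. Doublets were predicted (33 Sham, 114 TBI) and left in. Their number was set in advance at 0.8% of cells per 1000 cells of the library. This gave 1.62% of Sham and 3.02% of TBI cells, so leaving them out removes a larger share of TBI. UMIs were summed per class and library, with 0.5 added for ratios, and the interval code was checked on simulated data. For shares, cells were thinned to 1000 UMIs and shallower cells left out. List genes were named when among the 3 highest or 3 lowest ratios with at least 50 UMIs in a class, or when known to act directly with the 9 genes; for likeness, the 3 genes of highest correlation among those with at least 200 UMIs. Some genes that these rules name are not reported here. Alternatives covered doublets, resolution, scaling (edgeR 4.0.16 TMM among them), depth and top cells. Leaving out the 3 highest cells of each library takes a larger share of a class where it has fewer cells, mostly in Sham. Such ratios can thus shift upward. The members and lists were chosen with earlier results of these data known.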

Additional observations from a re-analysis of the deposited data

How the results depend on the processing

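No paired analysis was possible because each group is 1 library and the libraries share only the number 1; for the same reason no replicate could be left out. Apoe in macrophage-like cells (-0.01) was -0.050 as a mean over cells, 0.033 without the 3 highest cells, -0.10 thinned to 1000 UMIs and 0.024 with no hemoglobin limit. Fabp4 in endothelial-like cells (1.20) was 0.92 at resolution 0.4, 1.00 as a mean over cells, 1.00 thinned and, in an alternative chosen after seeing the data, 0.86 with unnamed clusters added to classes. It stayed past 1.5-fold in all 13 alternatives. The 2 genes past the fold in macrophage-like cells became 1 without doublets, 1 without the 3 highest cells, 0 thinned and 1 with no hemoglobin limit. The 1 in fibroblast-like cells became 0 without doublets, 2 without the 3 highest cells and 3 with no limit on UMIs. It was also 0 with doublets and cells holding at least 2 C1q UMIs both left out, an alternative chosen after seeing the data. That alternative contains the removal of doublets: of the 21 TBI fibroblast-like cells it left out, 18 were predicted doublets. The 3 in endothelial-like cells ranged from 2 to 5 over 14 alternatives. There were 2 without doublets, with doublets and C1q-holding cells both left out, as a mean over cells and thinned. There were 4 at resolution 0.4 and 5 with no limit on UMIs. Fabp5 turned direction when thinned, to -0.049 in macrophage-like cells, -1.26 in the C5ar1-led and -0.67 in the Ccl8-led cluster. The cause was not tested. Genes with few UMIs are limited by depth, and 3 counts are 11.5 CPM in Sham and 1.80 CPM in TBI fibroblast-like cells.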
